A study of Homo sapiens with 6 samples.

Results

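The NFκB genes described here are the 5 subunits of the transcription factor (NFKB1, NFKB2, RELA, RELB and REL), 3 IκB inhibitors (NFKBIA, NFKBIB and NFKBIE) and both catalytic kinases of the IKK complex (IKBKB and CHUK). They were taken by gene symbol from the deposited count table, in which all 10 were found among 24526 genes. RNA was sequenced from WM266.4 cells, an established human melanoma line, in 2 groups of 3 libraries. The RIPK4.si cells had received a silencing RNA directed at RIPK4, the neg.si cells a negative control siRNA, and both were collected at 48 h. RIPK4 was silenced with a single siRNA product in a single cell line, and the labels name no further treatment of either group.

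NFκB proteins act as dimers that IκB inhibitors hold in the cytoplasm. In the canonical pathway, receptors such as those for TNF-α activate the IKK complex, whose kinases phosphorylate IκB so that it is ubiquitinated and degraded and the dimers enter the nucleus. In the non-canonical pathway, the kinase encoded by CHUK drives the processing of the NFKB2 precursor, whose product pairs with RELB. Several genes of the pathway are themselves NFκB targets, and NFKBIA is the best known of these feedback genes. Transcript levels, which were measured here, give neither phosphorylation nor nuclear entry.

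Counts on genes summed to between 28464057 and 31688095 per library. The silenced gene had 85.8, 76.5 and 54.7 CPM (counts scaled to a common library size by the TMM method) in neg.si replicates 1, 2 and 3 and 19.9, 16.7 and 21.5 CPM in RIPK4.si. All 8 melanocyte lineage markers examined were present, with a summed level of 3710 to 3920 CPM in neg.si and 2590 to 2760 CPM in RIPK4.si. Keratinocyte markers, almost all KRT10, summed to between 9.99 and 11.4 CPM in neg.si and between 12.0 and 15.1 CPM in RIPK4.si. Fibroblast markers, mostly PDGFRB, summed to between 2.63 and 4.32 CPM in neg.si and between 4.99 and 5.43 CPM in RIPK4.si. Endothelial markers summed to between 1.04 and 1.46 CPM in every library. The summed levels of melanocyte markers were thus lower, and those of keratinocyte and fibroblast markers higher, in every RIPK4.si library. A sum is led by the most abundant genes of its list and does not show that each marker differed. KRT1 and CDH5 had no entry in the table, and KRT14 and DCN had at most 5 counts in any library. The part of these differences in the results below was not tested. In bulk RNA, a lower level in every cell and a loss from a share of the cells cannot be told apart.

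The promoters of the members were examined for the κB consensus, the DNA element bound by NFκB, because several of these genes are known targets of NFκB. The 10-base consensus was searched on both strands. In the RefSeq promoter table (GRCh38.p14), which gives 250 bases before and 50 after an annotated start, 7 members had 12 windows, and RELB, NFKBIE and IKBKB had none. Of these 7 members, 5 held the consensus, in 6 windows and at 8 sites, where 7.1% of all 27305 genes and 5.9% of all windows in the table held it. RELA and CHUK held no match in these windows. Each site is shown with 10 bases on either side, read along the strand of the gene, with the consensus in capitals.
NFKB1, 49 bases before the start, chr4:102501310-102501319: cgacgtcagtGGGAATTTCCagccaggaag
NFKB2, 107 bases before the second start, chr10:102394471-102394480: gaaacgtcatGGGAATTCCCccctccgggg
NFKB2, 78 bases before the second start, chr10:102394500-102394509: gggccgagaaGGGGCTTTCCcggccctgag
NFKB2, 176 bases before the third start, chr10:102395529-102395538: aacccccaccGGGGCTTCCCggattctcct
NFKB2, 21 bases before the third start, chr10:102395684-102395693: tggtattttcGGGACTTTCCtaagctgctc
NFKBIA, 81 bases before the start, chr14:35404821-35404830: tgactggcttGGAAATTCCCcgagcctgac
NFKBIB, 28 bases before the second start, chr19:38899941-38899950: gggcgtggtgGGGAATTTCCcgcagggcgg
REL, 47 bases before the start, chr2:60881527-60881536: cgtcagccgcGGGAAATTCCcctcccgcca
The first site of NFKB2 matched on both strands at the same position, those of REL and NFKBIB matched on the other strand shifted by a base, and that of NFKBIA matched on the other strand only. A match is a description of the letters, and binding was not measured.

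To compare genes with one another, CPM was divided by the length of the canonical transcript in kilobases. On this scale NFKBIA was the highest member in neg.si, at 19.0 ± 2.11 CPM per kb (SD, n = 3), and REL the lowest, at 0.298 ± 0.180 CPM per kb. NFKB2, NFKBIE, RELA and NFKB1 followed NFKBIA at 17.6 ± 3.36, 17.3 ± 5.59, 16.1 ± 3.23 and 15.2 ± 0.302 CPM per kb. The neg.si libraries of these first 5 genes overlapped from each to the next, so neighbours in this order were not resolved, although every NFKBIA library (17.3 to 21.4) was above every NFKB1 library (at most 15.5). A gap then separated NFKB1, whose lowest neg.si library had 15 CPM per kb, from CHUK at 10.4 ± 2.05, with a highest library of 12.5. NFKBIB (9.25 ± 3.76) overlapped both CHUK and IKBKB (7.14 ± 0.307). RELB, at 3.44 ± 1.38 CPM per kb, was below every IKBKB library, and REL was below every RELB library. In RIPK4.si the order was the same from the fourth place down, while NFKB2, NFKBIE and NFKBIA stood first at 16.1 ± 1.18, 15.6 ± 3.08 and 15.6 ± 0.594 with overlapping libraries. With the length of all annotated exons in place of the canonical transcript, an alternative chosen after seeing the data, NFKBIE came first at 15.7 CPM per kb in neg.si and NFKB1 stood in place 7 at 3.93, with REL last at 0.193.

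**Figure D1:**
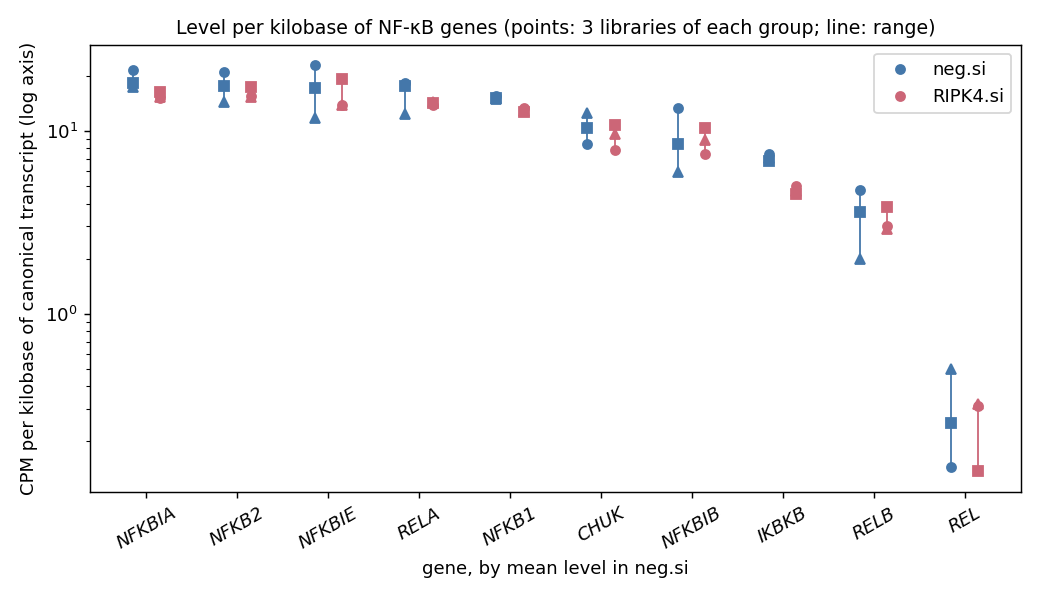
CPM per kilobase of canonical transcript (log axis) for the 10 genes, ordered by their mean in neg.si. Points are libraries (circle, square and triangle for replicates 1, 2 and 3), lines the range of a group, blue for neg.si and red for RIPK4.si. The first 5 genes lie between 11.7 and 22.9 in neg.si, and REL lies at or under 0.496 in every library.

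The comparison of RIPK4.si with neg.si asked whether silencing RIPK4 altered the transcripts of the NFκB machinery. IKBKB had the largest difference, with 66.3% of the neg.si level. NFKBIA followed with 82.2% and NFKB1 with 85.3%, and in these 3 genes the groups did not overlap. The other 7 genes had between 86.4% and 96.7% of the neg.si level, with overlapping groups. None of the 10 passed an adjusted p-value of 0.05 in the quasi-likelihood test of edgeR, adjusted by the Benjamini-Hochberg method over the 16297 genes tested, where 0.767% of genes passed. At an unadjusted threshold of 0.05 there was 1 member, IKBKB, on the lower side, where 6.0% of all genes tested were lower at this threshold. DESeq2 also called IKBKB alone as lower, against a background of 1.38% of the 15490 genes to which it gave an adjusted p. All 6 libraries of a gene were separated by group, with RIPK4.si lower, in 3 of 10 members and in 9.40% of all genes tested.

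All 10 fitted log2 fold changes were negative, from -0.59 to -0.05, with a median of -0.17. Over all genes tested the median was -0.023 and 53.4% were negative. The number of negative members depended on single libraries. It was 6 of 10, with a median of -0.12, when neg.si replicate 1 was left out and 8 of 10, with a median of -0.31, when neg.si replicate 3 was.

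**Figure D2:**
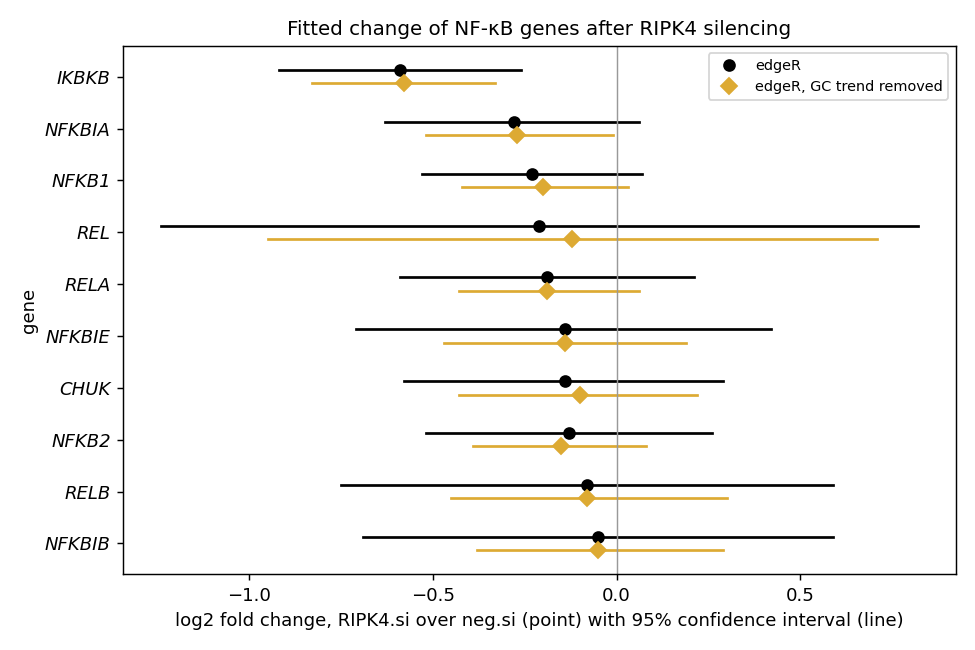
Fitted log2 fold change of RIPK4.si over neg.si (points) with 95% confidence intervals (lines) for the 10 genes, from edgeR (black circles) and from edgeR with the GC trend of each library removed (yellow diamonds). The interval of IKBKB, from -0.92 to -0.26, is the only black one that does not reach 0.

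IKBKB (ENSG00000104365.15, chromosome 8 of GRCh38, 42271302 to 42332653, plus strand) encodes the kinase that phosphorylates IκBα in the canonical pathway. It had 29.4, 26.9 and 28.0 CPM in neg.si replicates 1, 2 and 3 and 19.6, 17.8 and 18.6 CPM in RIPK4.si. Replicates lay close together, with a coefficient of variation of 4.30% in neg.si and 4.95% in RIPK4.si, and the lowest neg.si library was above the highest RIPK4.si library. The log2 fold change was -0.59 (standard error 0.147, 95% interval -0.92 to -0.26), with an adjusted p of 0.128 in edgeR. DESeq2 gave an adjusted p of 0.0388. Over all alternatives the adjusted p ranged from 0.0278, with the GC trend removed as described below, to 0.59. With any 1 library left out, the log2 fold change stayed between -0.62 and -0.54.

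CHUK (ENSG00000213341.11, chromosome 10, 100188300 to 100229596, minus strand) encodes the partner kinase, which also acts in the non-canonical pathway. It had 30.4, 37.1 and 45.2 CPM in neg.si and 28.4, 38.9 and 34.7 CPM in RIPK4.si. The groups overlapped, and the neg.si libraries alone spanned almost the whole range. The log2 fold change was -0.14 (95% interval -0.58 to 0.29, adjusted p = 0.902 in edgeR), and it was 0.02 without neg.si replicate 3. The CPM ratio of IKBKB to CHUK, which is compared between libraries only, was 0.964, 0.727 and 0.621 in neg.si and 0.690, 0.456 and 0.535 in RIPK4.si. On the log2 scale the ratio differed by -0.46 between groups, which overlapped on this scale but not with the GC trend removed, as described below. IKBKG, the regulatory subunit that joins them, had 18.5, 11.8 and 8.12 CPM in neg.si and 12.6, 15.7 and 11.7 CPM in RIPK4.si, and its log2 fold change was 0.06 (adjusted p = 0.979 in edgeR).

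Among the subunits, NFKB1 (ENSG00000109320.13, chromosome 4, 102501331 to 102617302, plus strand) encodes the precursor p105 and its product p50. Its level was 63.0, 61.0 and 60.7 CPM in neg.si and 54.2, 51.3 and 52.0 CPM in RIPK4.si. Its coefficient of variation was 1.99% in neg.si, the lowest of the 10 members in that group, and 2.84% in RIPK4.si, and the groups were apart. The log2 fold change was -0.23 (standard error 0.133, 95% interval -0.53 to 0.07, adjusted p = 0.628 in edgeR), and between -0.24 and -0.20 with any 1 library left out. RELA (ENSG00000173039.19, chromosome 11, 65653597 to 65663090, minus strand) encodes p65, the main activating subunit. It had 46.2, 44.1 and 31.2 CPM in neg.si and 35.1, 35.5 and 36.1 CPM in RIPK4.si. The RIPK4.si libraries were nearly equal and lay below neg.si replicates 1 and 2 but above neg.si replicate 3. The log2 fold change of RELA was -0.19 (95% interval -0.59 to 0.21, adjusted p = 0.831 in edgeR), and it ranged from -0.34 without neg.si replicate 3 to -0.06 without neg.si replicate 1.

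NFKB2 (ENSG00000077150.20, chromosome 10, 102394110 to 102402524, plus strand) encodes p100, the precursor of p52. It had 63.3, 52.6 and 43.1 CPM in neg.si and 46.8, 52.6 and 46.1 CPM in RIPK4.si. RELB (ENSG00000104856.14, chromosome 19, 45001449 to 45038198, plus strand), the partner of p52, had 10.7, 8.09 and 4.50 CPM in neg.si and 6.78, 8.65 and 6.53 CPM in RIPK4.si. In both genes of the non-canonical pathway neg.si replicate 1 was highest, neg.si replicate 3 lowest, and the RIPK4.si libraries lay between them. Their log2 fold changes were -0.13 (95% interval -0.52 to 0.26) and -0.08 (-0.75 to 0.59), with adjusted p-values of 0.902 and 0.972 in edgeR. Without neg.si replicate 1 they were 0.04 and 0.23.

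REL (ENSG00000162924.14, chromosome 2, 60881521 to 60931610, plus strand) encodes c-Rel, a subunit best known from lymphocytes. It was the shallowest member, with 50, 84 and 175 counts in neg.si and 102, 44 and 111 in RIPK4.si, or 1.61, 2.80 and 5.51 CPM against 3.48, 1.52 and 3.57 CPM. The groups overlapped throughout, and the 95% interval of the log2 fold change of -0.21 reached from -1.24 to 0.82 (adjusted p = 0.948 in edgeR). Leaving out neg.si replicate 3 gave 0.38, and leaving out RIPK4.si replicate 2 gave 0.10. In the GENCODE annotation, 33.3% of the exon bases of REL are shared with a long non-coding gene on the same strand that has no entry of its own in the table. For CHUK, RELA and NFKBIB, between 1.1% and 1.9% of exon bases lie opposite another gene, and the counting ignored strand.

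Among the inhibitors, NFKBIA (ENSG00000100906.10, chromosome 14, 35401511 to 35404749, minus strand) encodes IκBα, whose resynthesis ends an NFκB response. It had 33.3, 28.6 and 26.9 CPM in neg.si and 23.8, 25.4 and 23.9 CPM in RIPK4.si. Every RIPK4.si library was under every neg.si library. The log2 fold change was -0.28 (standard error 0.154, 95% interval -0.63 to 0.06, adjusted p = 0.589 in edgeR), from -0.34 to -0.17 with any 1 library left out.

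NFKBIB (ENSG00000104825.17, chromosome 19, 38899700 to 38908893, plus strand), which encodes IκBβ, had 15.9, 10.1 and 7.05 CPM in neg.si and 8.93, 12.4 and 10.6 CPM in RIPK4.si. NFKBIE (ENSG00000146232.16, chromosome 6, 44258166 to 44265788, minus strand), which encodes IκBε, had 53.7, 40.2 and 27.5 CPM in neg.si and 32.6, 45.0 and 32.2 CPM in RIPK4.si. Both repeated the pattern of NFKB2 and RELB, with neg.si replicates 1 and 3 at the ends of the range. Their log2 fold changes were -0.05 (95% interval -0.69 to 0.59, adjusted p = 0.981 in edgeR) and -0.14 (-0.71 to 0.42, adjusted p = 0.927). Without neg.si replicate 1 they were 0.33 and 0.13, and NFKBIB had 0.07 when RIPK4.si replicate 1 was left out.

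**Figure D3:**
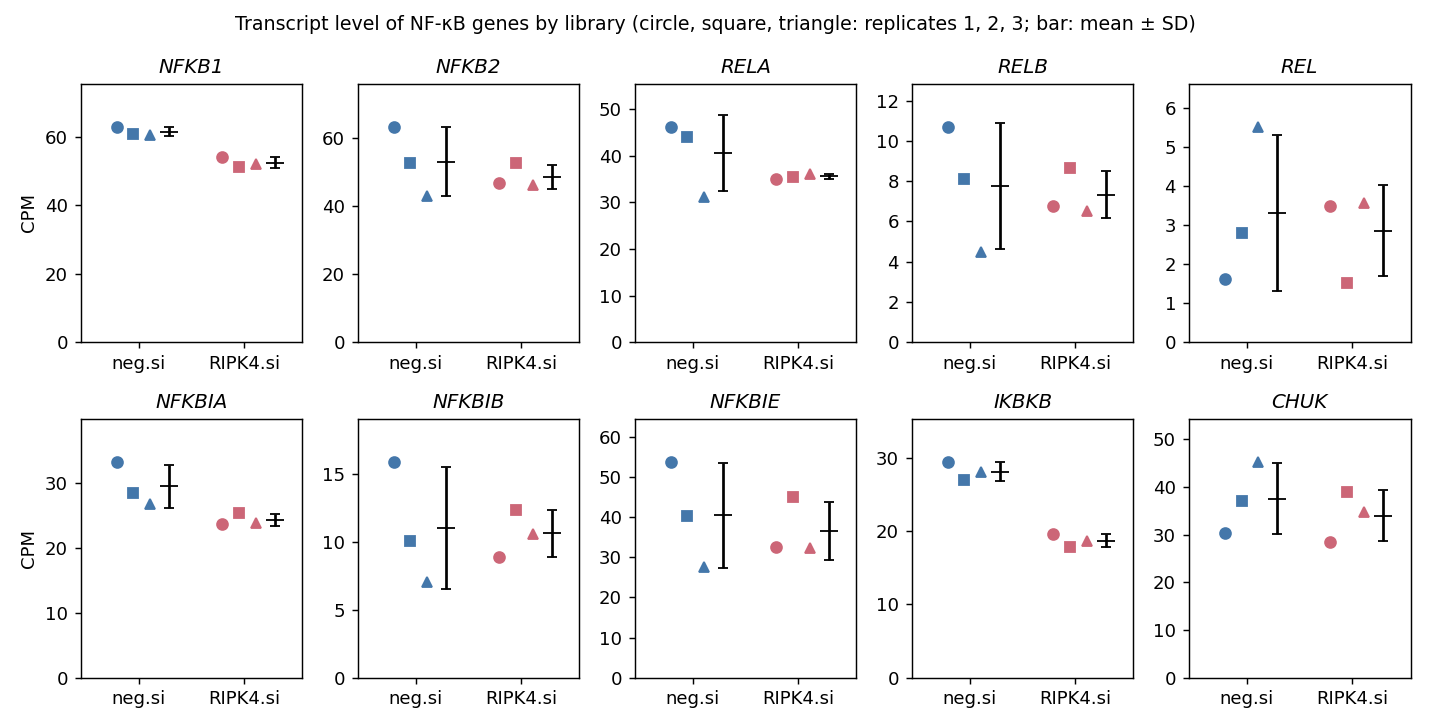
CPM of the 10 genes in each library, each panel on its own linear axis from 0. Circles, squares and triangles are replicates 1, 2 and 3, blue for neg.si and red for RIPK4.si, and black bars give the mean ± SD (n = 3). The groups are apart in NFKB1, NFKBIA and IKBKB and overlap in the other 7 genes.

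The spread between control libraries followed the GC content of the transcripts. Over all genes tested, the deviation of a library from the mean of a gene had a rank correlation with GC content of 0.56 in neg.si replicate 1, 0.08 in replicate 2 and -0.56 in replicate 3. In RIPK4.si it was -0.05, 0.17 and -0.08. These are correlations across genes, which share the library and are not independent. The members cover much of the GC range. REL and CHUK, with 38.4% and 38.9% GC, had a higher level in neg.si replicate 3 than in replicate 1, by 1.73 and 0.57 on the log2 scale. NFKB1, IKBKB and NFKBIA, with 50.1%, 52.5% and 53.0% GC, differed between these libraries by only 0.05, 0.07 and 0.30, in favour of replicate 1. RELA, NFKBIE, NFKB2, NFKBIB and RELB, with 58.6% to 64.9% GC, were higher in replicate 1 by between 0.56 for NFKB2 and 1.24 for RELB. The trend over all genes, as replicate 1 minus replicate 3, was -0.56 at the GC content of REL and -0.54 at that of CHUK. It was 0.67 at that of NFKB2 and 0.86 at that of RELB, so it did not cover the whole difference in REL and RELB. The 3 members whose groups were apart were those of intermediate GC content. With the trend removed, as described below, REL, CHUK, NFKBIE, NFKBIB and RELB still overlapped. The part of GC content in the overlaps was not tested.

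**Figure D4:**
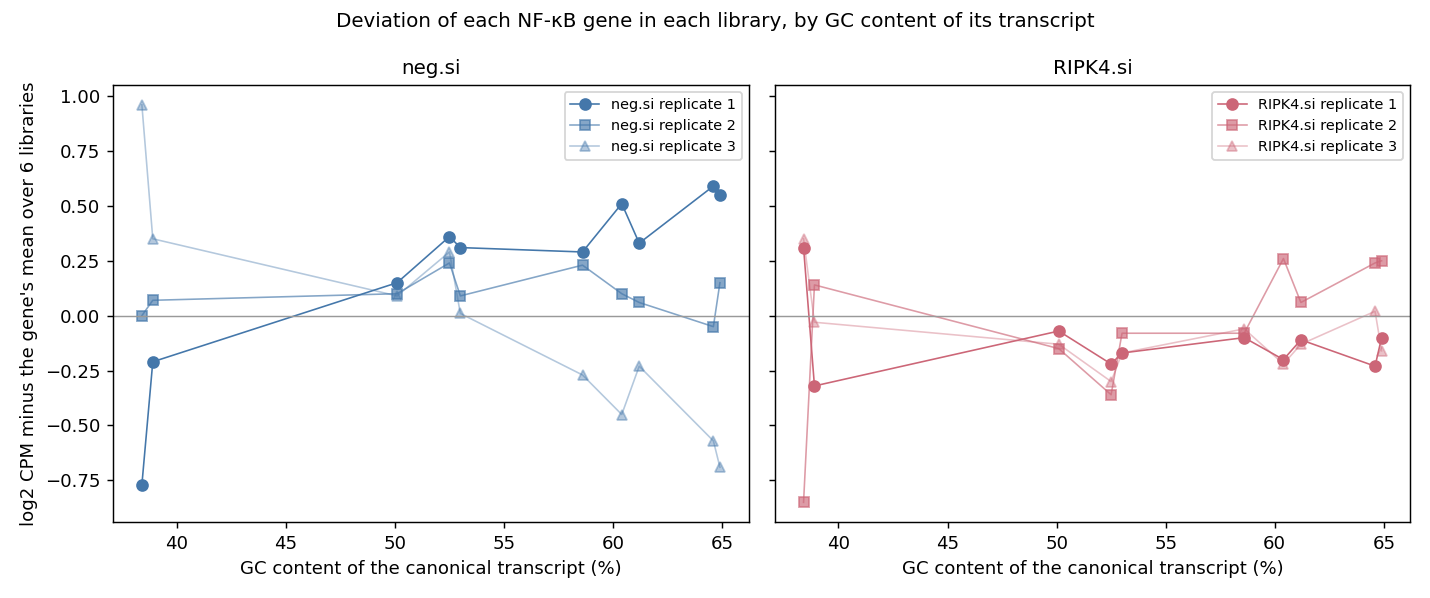
Deviation of each gene in each library from its own mean over 6 libraries (log2 CPM), against the GC content of its canonical transcript, with neg.si on the left and RIPK4.si on the right. Symbols mark the replicates. In neg.si the lines of replicates 1 and 3 cross near 50% GC, from -0.77 and 0.96 at REL to 0.55 and -0.69 at RELB.

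The comparison was repeated with the GC trend of each library removed, an alternative chosen after seeing the data. The SD of log2 CPM between neg.si libraries became smaller in 9 of 10 members and larger in IKBKB, from 0.0618 to 0.0804. It fell from 0.630 to 0.211 in RELB, from 0.284 to 0.0296 in CHUK and from 0.867 to 0.585 in REL, for example. The trend was fitted to these same libraries, so a smaller SD follows in part from the step itself, and the share over all genes was not computed. Between RIPK4.si libraries it became smaller in 7 of 10 members and larger in RELA (0.0197 to 0.0486), NFKBIA (0.0542 to 0.0794) and CHUK (0.230 to 0.265). The fitted log2 fold changes moved by at most 0.09, the value for REL. IKBKB had a log2 fold change of -0.58 (95% interval -0.83 to -0.33) and was the only member called, with an adjusted p of 0.0278 in edgeR, where 1.72% of all genes were called as lower. NFKBIA had -0.27 (95% interval -0.52 to -0.01, adjusted p = 0.281), NFKB1 -0.20 (-0.42 to 0.03, adjusted p = 0.378) and RELA -0.19 (-0.43 to 0.06, adjusted p = 0.461). The groups were then apart, with RIPK4.si lower, in 5 of 10 members, where this held for 11.6% of all genes tested. These were IKBKB, NFKBIA and NFKB1 and, in addition, RELA and NFKB2. NFKB2 had log2 CPM of 5.68, 5.70 and 5.80 in neg.si and 5.58, 5.62 and 5.52 in RIPK4.si on this scale. CHUK remained overlapping, at 5.17, 5.23 and 5.20 against 4.82, 5.35 and 5.07, and the log2 ratio of IKBKB to CHUK was then apart, at -0.37, -0.50 and -0.31 in neg.si and -0.57, -1.17 and -0.83 in RIPK4.si.

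The other ratios within the family overlapped between groups with and without this step. The CPM ratio of NFKB2 to NFKB1 was between 0.710 and 1.01 in neg.si and between 0.863 and 1.02 in RIPK4.si. That of NFKBIA to RELA, an inhibitor against the subunit it retains, was 0.721, 0.649 and 0.865 in neg.si and 0.677, 0.715 and 0.661 in RIPK4.si. RELB to RELA was between 0.144 and 0.231 in neg.si and between 0.181 and 0.244 in RIPK4.si. NFKBIE to NFKBIB ran from 3.38 to 3.97 in neg.si and from 3.03 to 3.66 in RIPK4.si.

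Genes with profiles most like those of the 3 members with the largest fold changes were sought among 13045 tested protein-coding genes, by the root mean square difference of centred log2 CPM over the 6 libraries. For IKBKB these were DNAJC7 (0.0463), MAPKAPK5 (0.0466) and QPCT (0.0543), with log2 fold changes of -0.57, -0.52 and -0.53. For NFKBIA they were VPS9D1 (0.0393), GTF2F2 (0.0456) and FAM118B (0.0464), and for NFKB1 OSTF1 (0.0230), ARNT (0.0282) and SLC43A3 (0.0320). With 6 libraries, such likeness is a description only.

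A list of 35 further genes of the pathway was read in the same fit, and all were tested. None passed an adjusted p of 0.05 in edgeR, 2 passed an unadjusted threshold of 0.05, both lower, and DESeq2 called the same 2, TRAF1 and BIRC3. Over all genes tested in edgeR, 6.0% were lower at the unadjusted threshold, and DESeq2 called 1.38% of its 15490 genes as lower. The groups were apart in 5 genes of the list with RIPK4.si lower and in 2 with RIPK4.si higher, where this held for 9.40% and 8.23% of all genes. The median log2 fold change of the list was 0.00, with 17 of 35 negative. TRAF1, an adaptor of TNF receptors, had 20.8, 19.1 and 17.0 CPM in neg.si and 8.69, 11.5 and 10.7 CPM in RIPK4.si, and its log2 fold change was -0.88 (adjusted p = 0.0711 in edgeR). BIRC3, which encodes the ubiquitin ligase cIAP2, had 45.9, 70.9 and 94.8 CPM in neg.si and 43.0, 29.6 and 42.9 CPM in RIPK4.si, and its log2 fold change was -0.87 (adjusted p = 0.22). Both were separated by group, BIRC3 narrowly. BTRC and FBXW11, which encode the ligases that recognise phosphorylated IκB, also had lower values in every RIPK4.si library, with log2 fold changes of -0.33 and -0.24 (adjusted p = 0.536 and 0.629 in edgeR). TNFAIP3, the deubiquitinase A20 that restrains IKK activation, had 31.9, 33.8 and 35.9 CPM in neg.si and 30.3, 23.0 and 29.0 CPM in RIPK4.si (log2 fold change -0.30, adjusted p = 0.581 in edgeR). TRAF3, which restrains the non-canonical pathway, was on the other side, with a log2 fold change of 0.29 (adjusted p = 0.507 in edgeR) and groups apart.

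A list of 30 NFκB target genes was read as an output of the pathway. Of these, 25 were tested, and TRAF1, BIRC3, TNFAIP3 and NFKBIZ stand in both lists. None passed an adjusted p of 0.05 in edgeR, 7 passed an unadjusted threshold of 0.05, 3 higher and 4 lower, and DESeq2 called 3, of which TRAF1 and BIRC3 are those already counted in the pathway list and PTGS2 is the other. Over all genes tested, 4.85% were higher and 6.0% lower at the unadjusted threshold, and DESeq2 called 1.39% of its 15490 genes as higher and 1.38% as lower. The groups were apart in 5 of the 25 tested target genes with RIPK4.si lower and in 5 with RIPK4.si higher, where this held for 9.40% and 8.23% of all genes. Of the lower ones, TRAF1, BIRC3 and TNFAIP3 were already counted in the pathway list. Log2 fold changes ran from -1.09 to 1.01 with a median of -0.07. The chemokine genes and PTGS2, the inducible cyclooxygenase, did not share a direction. PTGS2 had 5.23, 6.66 and 8.31 CPM in neg.si and 13, 13.3 and 14.5 CPM in RIPK4.si, and its log2 fold change was 1.01 (adjusted p = 0.069 in edgeR). CCL20 and CCL2 had log2 fold changes of 0.77 and 0.45, and CXCL2 -0.57 (adjusted p = 0.247, 0.383 and 0.353 in edgeR). CXCL8, the gene of IL-8, had 397, 412 and 378 CPM in neg.si and 437, 632 and 472 CPM in RIPK4.si. Its groups were apart with RIPK4.si higher, at a log2 fold change of 0.38 (95% interval -0.02 to 0.77, adjusted p = 0.487 in edgeR). IL6 had 2, 2 and 4 counts in neg.si and 2, 9 and 6 in RIPK4.si, too few to test.

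**Figure D5:**
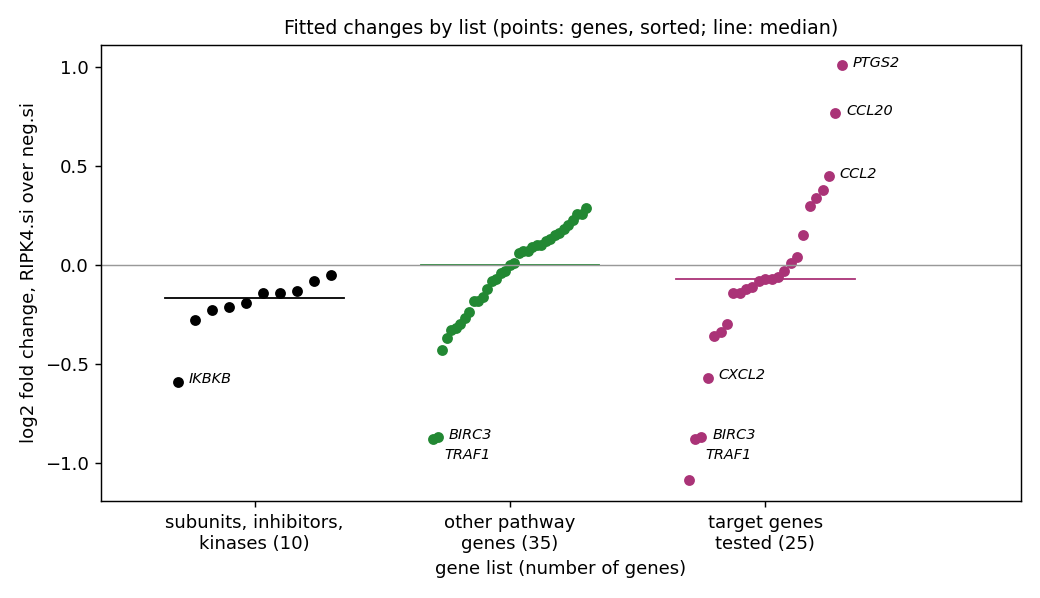
Fitted log2 fold change of RIPK4.si over neg.si for the 10 NFκB genes (black), 35 other genes of the pathway (green) and 25 tested target genes (purple), with genes sorted within each list and a line at its median. The black points are all under 0, the green ones centre on 0.00, and the purple ones spread from -1.09 to 1.01.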

How the data were processed

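The authors enriched poly(A) RNA, sequenced it as paired ends on a BGISEQ platform, removed adapters (Cutadapt), mapped reads to GRCh38.p13 (TopHat) and let HTSeq assign pairs to genes regardless of strand. As deposited, the table gives raw counts of read pairs for 24526 genes, each with 6 or more over all libraries. The deposited signal values are these counts divided by the authors' DESeq2 size factors and served only as a check. Columns with the authors' own fold changes and p-values were not used.

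All genes were fitted together with edgeR 4.0.16 in R 4.3.3 (TMM, filterByExpr, quasi-likelihood test of group, Benjamini-Hochberg adjustment over 16297 genes, calls at 0.05). A standard error is the log2 fold change divided by the square root of F, and 95% intervals use the test's degrees of freedom. A p-value sets the difference between groups against the spread between these libraries, which the fit estimates in part from all genes together. Length, GC content (24416 identifiers matched) and overlaps came from GENCODE 44. The GC trend was a lowess (span 0.3) on GC content in each library, entered as offsets. It was fitted to log2 CPM minus the gene's mean over all 6 libraries. A difference between groups that follows GC content is therefore removed as well. Figures used matplotlib 3.10.9 under Python 3.11.15. The fits were tested on simulated data. Alternatives were DESeq2 1.42.0, other scalings and filters on low counts, a replicate block and each library left out.

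The members, the lists and the tests were chosen with earlier results of these data known. GRCh38 positions are those of the deposited table, and promoter windows those of RefSeq. Named were every member, RIPK4, the 6 genes with the smallest p-values in each list, CXCL8, IL6, IKBKG and TNFAIP3, and the 3 genes most like each of the 3 members with the largest fold changes. NFKBIZ, which both lists hold, and single marker genes were named outside this rule, after their values were seen.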

Additional observations from a re-analysis of the deposited data

How the results depend on the processing

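DESeq2 called 430 genes where edgeR called 125, and the fit without the GC trend, an alternative added with the data in view, gave 555. With 1 library left out the count lay between 0 and 295. Among the members, 1 (IKBKB) was called with DESeq2 and 1 (IKBKB) with the GC trend removed, and 0 under every other alternative run. Of the other pathway genes 2 were called with each of these alternatives and 0 to 1 with a library left out, and of the target genes 3 with each and 0 to 2 with a library left out. The sign of the log2 fold change turned in 6 members when a library was left out, over ranges of -0.25 to 0.04 for NFKB2, -0.36 to 0.23 for RELB, -0.52 to 0.38 for REL, -0.28 to 0.33 for NFKBIB, -0.35 to 0.13 for NFKBIE and -0.26 to 0.02 for CHUK. The cause was not tested. The labels number the replicates alike in both groups but tie the numbers to no shared day or batch. The paper's captions speak of 3 independent experiments, without saying whether the replicate numbers stand for them. Same-numbered libraries had correlations of -0.24, 0.25 and 0.35 in their deviations from the group means, and 3 of 6 libraries correlated best with their own number. These values cannot exclude pairing, because the deviations within a group of 3 are tied to one another. The main fit left the libraries unpaired. With a replicate block, 131 genes and 0 members were called, and NFKBIB had a log2 fold change of 0.02. NFKB1, RELA, NFKBIA, IKBKB and RIPK4 kept a negative sign under all alternatives. REL had the fewest counts of the members, and RIPK4 was no longer called (adjusted p of 0.0622 to 0.106 in edgeR) without neg.si replicate 2 or any 1 RIPK4.si library. The log2 fold change of RIPK4 was -1.9 with all libraries and between -1.98 and -1.79 in these fits.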
